A study of Homo sapiens with 24 samples.

Results

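The loss of mRNA over the first 4 h of a transcription block was measured in control cells of U2OS, a human osteosarcoma line, with the sgNS guide and an empty vector (genotype sgNS+EV). The groups were 2 libraries taken at 4 h and 2 taken at 0 h, which are 4 of the 24 libraries of the series, and all 12547 endogenous genes of the table were compared. Transcription was blocked with actinomycin D (5 µg/mL), given along with sodium arsenite (200 µM), for 4 h in the first group and for 0 h in the second. Actinomycin D and arsenite were given together, so the effect of each drug on the early loss cannot be told apart. The other libraries were sgNS+EV cells at 8 h, and cells at 0, 4 and 8 h in which QKI was targeted (sgQKI) and which carried an empty vector (sgQKI+EV), QKI7 (QKI7-WT) or QKI7 whose KH domain is marked as deleted (QKI7-dKH). The labels do not say whether a genotype is 1 clone, which promoter drives the vectors, or whether libraries of a group came from separate cultures, so p-values measure only the spread between these libraries, which may be technical.

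An mRNA whose synthesis has stopped disappears at the rate at which the cell degrades it, usually by shortening of its poly(A) tail, removal of its cap and digestion from both ends. Transcripts of immediate-early genes, cytokines and many regulators of transcription are known as short-lived, while those for ribosomal proteins, metabolic enzymes and structural proteins are known as long-lived. AU-rich elements in the 3′ untranslated region (3′UTR), which proteins such as tristetraprolin bind, are a well-known signal for rapid loss. Arsenite, an oxidative stressor, stops most translation initiation and gathers untranslated mRNA in stress granules.

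Values are a linear signal as deposited, here called spike-in-scaled signal because the ERCC spike-in RNAs have nearly equal sums in all libraries; this scaling is inferred from the values. Its endogenous sum was 969600 and 920600 in the 4 h libraries, against 1220000 and 1216000 in the 0 h libraries, while the spike-in sum stayed between 11480 and 11940 in every library of the series. Among the 24 spike-in RNAs with a mean of at least 10, the median log2 change between 4 h and 0 h was 0.00, with a range of -0.33 to 0.73. Ribosomal RNA rows held 3.14% and 3.19% of the endogenous signal at 4 h, against 11.8% and 7.83% at 0 h. How the spike-in was added is not given in the sources used here, and without read counts the depth is unknown. Fewer cells and less RNA per cell cannot be told apart in such bulk libraries. Log2 values correlated across genes with r = 0.9965 between the 4 h libraries and r = 0.9966 between the 0 h libraries. The mesenchymal marker VIM stood at 3514 and 3205 at 4 h, against 3711 and 3945 at 0 h. The osteoblast-lineage markers COL1A1 and RUNX2 were measured and are described with their list. In short panels of defining markers, which differ from the longer marker lists described with the gene lists, the blood marker LAPTM5, the only one measured of 5, stayed between 1.87 and 2.43 in the 4 libraries. Of 5 epithelial markers 3 were measured (EPCAM, KRT8 and KRT18), with a sum of 935 and 916 at 4 h, against 1164 and 1241 at 0 h. Of 3 neuronal markers only SNAP25 was measured, with a mean of 6.17 at 4 h and 6.83 at 0 h, and of 3 hepatocyte markers none was. QKI itself had 54.0 and 50.1 in sgNS+EV cells at 4 h, against 60.0 and 48.2 at 0 h, and at 0 h it had 36.0 and 32.7 in sgQKI+EV cells.

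Most mRNAs had fallen modestly by 4 h. Each gene was tested with limma on log2(signal + 1), with p-values adjusted over all genes by the Benjamini-Hochberg method and a threshold of 0.05, and a gene past it is said to have passed. Of 12547 genes, 7508 (59.8%) were lower at 4 h and 53 (0.422%) were higher, so 60.3% passed in either direction. The median log2 change was -0.31, with a standard error (SE) of 0.11 for a typical gene, and the middle 80% of genes lay between -0.74 and -0.02. The median gene kept 79.2% of its 0 h signal. Of the 7508 lower genes, 493 (3.93% of all genes) had fallen by at least 2-fold, and no gene had risen by that much. On the signal itself, 694 genes were under 50% of their 0 h level, 55 under 25% and 10 under 10%. Both 4 h values lay on one side of both 0 h values for 10300 genes (82.1%). These counts hold on the spike-in scale. When libraries were scaled to equal totals, the median change moved to 0.03 and 2214 genes were higher and 2160 lower; with ribosomal RNA left out of the totals, 940 were higher and 3162 lower, and after quantile normalisation 2928 and 2386. A small change below 0 on the spike-in scale is therefore a fall only under that scale, and the changes below are best read against the all-gene median of -0.31.

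**Figure D1:**
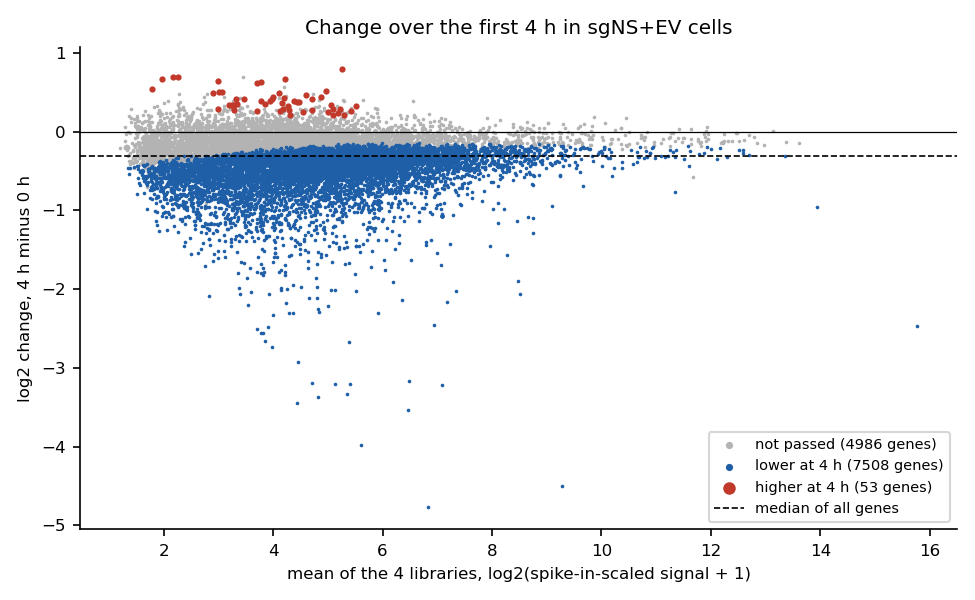
Each point is a gene, with its mean signal over the 4 sgNS+EV libraries on the x axis and its log2 change between 4 h and 0 h on the y axis. The 7508 genes that were lower (blue) reach from just below 0 to -4.77, whereas the 53 that were higher (red) stay below 0.80; the dashed line is the all-gene median of -0.31.

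The 14 genes that fell most, among those with a mean signal of at least 10, kept between 3.23% and 11.9% of their 0 h level. CYR61, a secreted matrix-associated protein and a target of the coactivators YAP and TAZ (GRCh38 chr1:85580761-85583962, plus strand), had a signal of 6.76 and 7.28 at 4 h, against 212 and 223 at 0 h, a log2 change of -4.77 ± 0.09 (SE, n = 2 each, limma adjusted p = 8.6e-20). ID1, which blocks basic helix-loop-helix transcription factors (chr20:31605283-31606515, plus strand), had 49.0 and 54.9 at 4 h, against 1172 and 1219 at 0 h, a log2 change of -4.50 ± 0.12 (adjusted p = 7.3e-17). The 4 h and 0 h values of both genes were far apart, and their replicates lay close together. NFKBIA, the inhibitor that holds NF-κB in the cytoplasm (chr14:35401511-35404749, minus strand), had 5.38 and 4.24 at 4 h, against 89.8 and 90.7 at 0 h, and changed by -3.98 ± 0.15 (adjusted p = 1.9e-14). DDIT4, a stress-induced inhibitor of mTORC1 signalling (chr10:72273920-72276036, plus strand), had 12.4 and 13.8 at 4 h, against 159.6 and 164 at 0 h, and changed by -3.53 ± 0.10 (adjusted p = 7.7e-17). No 4 h value of these genes came near a 0 h value.

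SOCS3, a feedback inhibitor of cytokine receptors, had 2.37 and 2.93 at 4 h, against 38.4 and 38.9 at 0 h. ID2, a relative of ID1, had 6.16 and 6.47 at 4 h, against 75.2 and 70.5 at 0 h. The immediate-early gene IER3 had 26.0 and 24.8 at 4 h, against 233 and 255 at 0 h. The ratio of the 0 h to the 4 h mean was at least 9.60 in these genes. IER5, another immediate-early gene, had 6.98 and 7.70 at 4 h, against 74.3 and 77.1 at 0 h. The zinc finger transcription factor EGR1 had 4.18 and 4.17 at 4 h, against 46.3 and 45.9 at 0 h. The ephrin EFNA4, a ligand of Eph receptors, had 3.84 and 4.36 at 4 h, against 38.0 and 37.5 at 0 h. The remaining members were SERTAD3, PNRC1, PPP1R3C (a glycogen-targeting subunit of protein phosphatase 1) and RPL22L1, with log2 changes between -3.36 and -2.73.

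RPL22L1, a paralogue of ribosomal protein L22, stood apart from the other ribosomal proteins. It had 15.9 and 18.4 at 4 h, against 159.9 and 162 at 0 h, a log2 change of -3.16 ± 0.10 (limma adjusted p = 8.9e-16). RPL22 itself, named here after its value was seen, had 474 and 414 at 4 h, against 408 and 426 at 0 h, and its change of 0.09 ± 0.09 did not pass (adjusted p = 0.38). The groups overlap for RPL22 and are far apart for RPL22L1, whose 0 h mean was 9.39 times the 4 h mean.

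**Figure D2:**
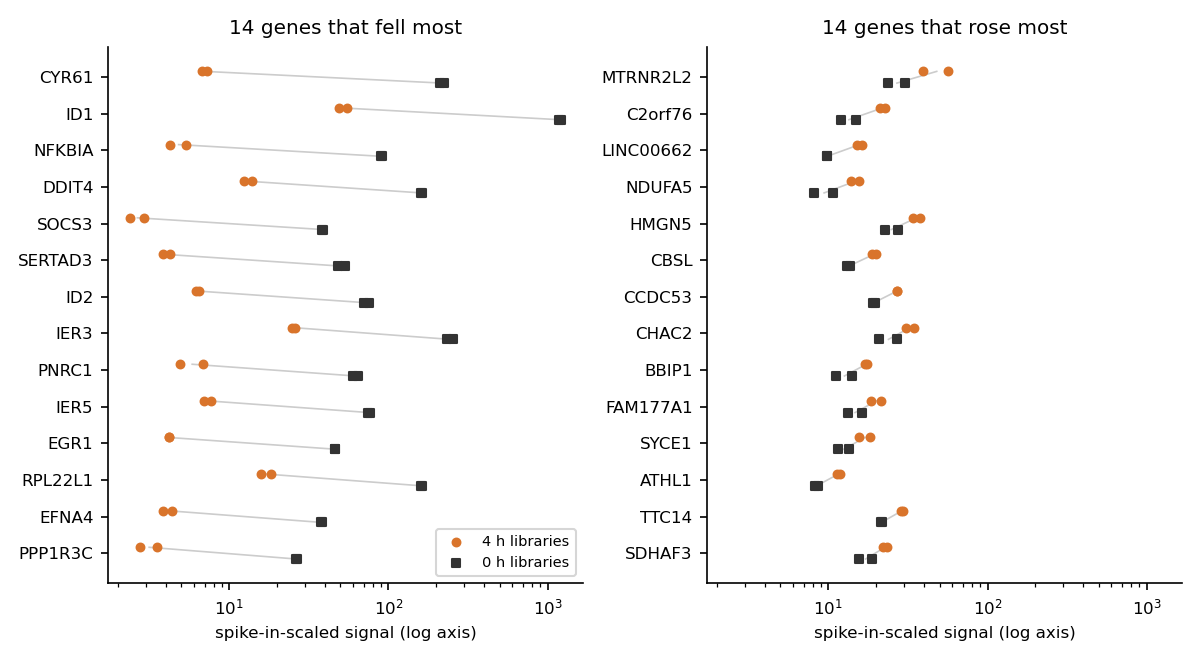
Spike-in-scaled signal (log axis) of the 14 genes that fell most and the 14 that rose most among those with a mean of at least 10, with 1 point per library (4 h circles above 0 h squares) and a grey line between the group means. Only genes with non-overlapping groups were chosen, which 82.1% of all genes have. The falls reach -4.77 log2 (CYR61) and the rises no more than 0.79 (MTRNR2L2).

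The genes that rose did so by little. All 53 had non-overlapping groups, as 82.1% of all genes did, with a median log2 change of 0.37 and mean 4 h signals between 3.08 and 49.8. C2orf76 had 22.6 and 21.1 at 4 h, against 11.9 and 15.0 at 0 h, a log2 change of 0.67 ± 0.12 (SE, n = 2 each, limma adjusted p = 7.5e-05). The long non-coding RNA LINC00662 had 15.2 and 16.2 at 4 h, against 9.83 and 9.81 at 0 h, a change of 0.63 ± 0.13 (adjusted p = 0.00044). Their 4 h means were 162% and 160.1% of the 0 h means, and their replicates lay close together except for C2orf76 at 0 h. NDUFA5, a subunit of respiratory complex I, had 15.6 and 13.9 at 4 h, against 10.7 and 8.10 at 0 h, and HMGN5, a nucleosome-binding protein, had 37.4 and 34.3, against 27.2 and 22.5. MTRNR2L2, at 56.5 and 39.4 at 4 h against 30.1 and 23.8 at 0 h, resembles mitochondrial ribosomal RNA in sequence, and CBSL, at 19.8 and 18.7 against 13.8 and 13.1, is a near-identical copy of CBS, so reads of these genes may be shared with their copies. The remaining members of the 14 were CCDC53, CHAC2, BBIP1, FAM177A1, SYCE1, ATHL1, TTC14 and SDHAF3, with log2 changes between 0.39 and 0.46. These calls rest on few libraries: of the 14, 4 still passed without replicate 1 of the 4 h group and 5 without replicate 2 of the 0 h group, and of all 53 genes 18 and 15 did, whereas all 14 of the strongest falls passed whichever of the 4 libraries was left out. Their transcripts had a median GC content of 40.7%, against 54.3% in the 14 genes that fell most.

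Gene lists were described by how many measured members passed and by their median change. These are to be read against all genes, of which 59.8% were lower and 0.422% higher, with a median of -0.31. Of the 43 lists with at least 5 measured members, 23 kept a median below 0 under all 3 other scalings tried, 8 had one above 0 under all 3, and the remaining lists changed side with the scaling.

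The lowest medians were those of 3 lists of regulators, many of them known as short-lived. The lists were written with earlier results of these data known, so this order is a description and not a test. Of 37 measured immediate-early and AU-rich-element mRNAs, 34 were lower and none higher, with a median log2 change of -1.22, so the median member kept 42.2% of its signal. Beside CYR61, NFKBIA, IER3 and IER5 the list holds MYC, a growth-promoting transcription factor, at 30.3 and 31.2 at 4 h, against 94.9 and 100.3 at 0 h, and JUN, a subunit of the AP-1 transcription factor, at 20.8 and 20.7, against 58.6 and 59.8; both were named after their values were seen. Of 31 developmental regulators of signalling pathways, listed because they are held to be short-lived, 27 were lower, with a median of -1.01. Beside ID1 and ID2 they included SMAD7, the inhibitory SMAD of TGF-β and BMP signalling, at 3.09 and 3.11 at 4 h, against 22.6 and 23.5 at 0 h, and ID3, at 134 and 144, against 553 and 618. All 9 measured MAPK phosphatases and Sprouty-type inhibitors, which end signalling through MAP kinases, were lower, with a median of -1.02; DUSP5 had 5.64 and 5.13 at 4 h, against 19.8 and 22.3 at 0 h. The medians of these 3 lists stayed below -0.65 under every scaling tried. The 16 measured NF-κB feedback and inflammatory genes, NFKBIA among them, lay nearer to all genes. In that list 11 (68.8%) were lower, with a median of -0.48.

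AU-rich nonamers did not mark the genes that fell most. The letters TTATTTATT were found in the 3′UTR of 8.54% of 11489 protein-coding genes (GENCODE 29 transcripts, transcript strand), but in only 1 of the 14 genes with the largest falls, IER5. Among genes under 50% of their 0 h level the share was 10.6% (62 of 585), and among those under 25% it was 3.92% (2 of 51). No match says only that these letters are not in the annotated 3′UTR of the chosen transcript. The first such site is shown for 6 genes, because it is the best-known decay signal of this kind. They had the largest falls among holders considered in the 14 lowest and in the lists of immediate-early mRNAs, decay adaptors and developmental regulators. Genes of 1 chromosome and sites split between exons were not considered. The nonamer is in capitals, positions are on GRCh38, and sequences run 5′ to 3′ on the transcript strand.
IER5 (chr1:181092443-181092471, plus strand): gtgtcttcctTTATTTATTtatttattta
TNFAIP3 (chr6:137882298-137882326, plus strand): gtaattcactTTATTTATTttattacaaa
CSRNP1 (chr3:39142885-39142913, minus strand): ttctctggatTTATTTATTtgttttaact
ZFP36L2 (chr2:43223448-43223476, minus strand): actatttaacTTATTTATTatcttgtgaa
SOX9 (chr17:72125498-72125526, plus strand): cttgctaaaaTTATTTATTttgtaaggag
ZFP36L1 (chr14:68788077-68788105, minus strand): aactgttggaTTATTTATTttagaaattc
IER5 holds 3 overlapping nonamers, which run into the lower-case letters on the right, and kept 9.70% of its 0 h signal. The other genes hold 1 each. TNFAIP3, a feedback inhibitor of NF-κB, kept 27.0% of its signal, with 1.63 and 1.94 at 4 h, against 6.06 and 7.14 at 0 h. ZFP36L2, itself a protein that binds AU-rich elements, kept 43.6%, and its relative ZFP36L1 50.4%. CSRNP1 kept 37.3% and the transcription factor SOX9 48.9%.

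Genes that control mRNA turnover fell unevenly. Of 17 TTP-family proteins and TOB/BTG adaptors, which bring the deadenylase complex to mRNAs, 13 were lower, with a median of -0.87. BTG2 had 8.41 and 8.59 at 4 h, against 39.6 and 40.8 at 0 h. Of 62 genes of the decay machinery itself 40 were lower (64.5%), with a median of -0.31 that equals that of all genes; SMG8, a regulator of nonsense-mediated decay, had 20.3 and 20.5 at 4 h, against 47.7 and 48.0 at 0 h. Stress granule proteins had a median of -0.29, with 32 of 48 lower. G3BP1, the scaffold of stress granules, had 303 and 282 at 4 h, against 346 and 345 at 0 h, a log2 change of -0.24 ± 0.07 (limma adjusted p = 0.0052) that was above 0 under all 3 other scalings.

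The lists of signalling and survival genes described next had medians between -0.62 and -0.43. Of 34 transmembrane receptors of growth factors and other ligands, NOTCH receptors among them, 31 were lower, with a median of -0.62. NOTCH3, a receptor for membrane-bound ligands of neighbouring cells, had 10.4 and 10.2 at 4 h, against 43.1 and 43.8 at 0 h. Of 25 YAP and TAZ targets 22 were lower, with a median of -0.56, and CTGF, a relative of CYR61, had 51.1 and 52.5 at 4 h, against 229 and 241 at 0 h. Hippo pathway components had a median of -0.43, with 36 of 44 lower. Of 15 BCL2-family genes 12 were lower, with a median of -0.50. The largest falls were of genes that promote apoptosis, BBC3 (2.84 and 3.15 at 4 h, against 21.7 and 23.2 at 0 h), BMF (4.54 and 4.12, against 24.4 and 27.1) and BCL2L11 (3.77 and 4.14, against 17.8 and 16.3), while the survival factor MCL1 had 50.1 and 49.8, against 108 and 106. Of 32 p53 targets 28 were lower, with a median of -0.47, and of 24 PIM kinases, cyclins and inhibitors of cyclin-dependent kinases 20 were lower, with a median of -0.53. CDKN1B, an inhibitor of cyclin-dependent kinases, had 10.2 and 10.3 at 4 h, against 56.4 and 47.0 at 0 h.

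Chromatin and transcription genes also fell more than most. Of 40 histone lysine methylation enzymes 32 were lower, with a median of -0.61, among them SETD1B (3.68 and 3.45 at 4 h, against 14.7 and 15.1 at 0 h) and KMT2D (8.81 and 8.33, against 23.3 and 22.9). Of 47 RNA polymerase II and Mediator subunits 39 were lower, with a median of only -0.37 but with MED9 at 3.41 and 2.54 at 4 h, against 25.5 and 22.3 at 0 h. Of 390 genes named ZNF 261 were lower and 1, ZNF692, was higher, with a median of -0.43. Replication-dependent histones had a median of -0.60, with 20 of 29 lower; their mRNAs lack a poly(A) tail, so a poly(A) library samples them poorly, and HIST2H3A and HIST2H3C carry identical values. Of 24 host genes of small nucleolar RNAs 20 were lower, with a median of -0.59, and SNHG3 had 61.2 and 64.1 at 4 h, against 136 and 141 at 0 h. Of 21 long non-coding RNAs 15 were lower; NORAD had 62.8 and 61.0 at 4 h, against 209.7 and 197 at 0 h.

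Stress-response lists kept close to the all-gene median, with single members that fell far. Of 37 heat shock chaperones 24 were lower, with a median of -0.24 that was above 0 under all 3 other scalings. DNAJB1, a co-chaperone, had 60.2 and 59.0 at 4 h, against 153 and 166 at 0 h, and HSPA1A, an inducible HSP70, had 159 and 155, against 279.6 and 304; HSPA1B is a near-identical copy, so reads may be shared. Of 37 NRF2 targets 25 were lower, with a median of -0.28; HMOX1, a haem-degrading enzyme known to be induced by arsenite, had 35.4 and 35.9 at 4 h, against 65.5 and 73.4 at 0 h. Of 29 ATF4 targets 19 were lower, with a median of -0.35, and of 26 endoplasmic reticulum stress genes 15 were lower, with a median of -0.30. Among them HERPUD1 had 19.2 and 20.4 at 4 h, against 55.4 and 58.9 at 0 h, and the chaperone HSPA5 had 181 and 168, against 332 and 359. Of 4 measured metallothioneins and zinc exporters 3 were lower, and MT1E, at 423 and 374 against 435 and 461, did not pass (log2 change -0.17, adjusted p = 0.15). No member of these 5 lists was higher, and of all genes only 0.422% were.

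Lists of the translation machinery, the respiratory chain and the proteasome had small losses, with medians between -0.23 and -0.14. Of 77 cytosolic ribosomal proteins 28 (36.4%) were lower and 49 did not pass, with a median of -0.14, so the median member kept 90.9% of its signal. RPS21 had 2377 and 2894 at 4 h, against 3459.5 and 3671 at 0 h, a log2 change of -0.44 ± 0.13 (limma adjusted p = 0.0074) that no longer passed without replicate 1 of the 4 h group (adjusted p = 0.11), without replicate 2 of the 0 h group (0.054) or under the 3 other scalings (0.15 to 0.69). Of 31 elongation factors and other mRNAs with a terminal oligopyrimidine start 12 were lower, with a median of -0.19. Aminoacyl-tRNA synthetases had a median of -0.20 (11 of 20 lower), mitochondrial ribosomal proteins -0.21 (42 of 76), respiratory chain subunits -0.23 (46 of 76, and NDUFA5 higher) and proteasome subunits -0.23 (27 of 31). The medians of all 6 lists lay above 0 under each of the 3 other scalings, so their direction depends on the scale, while their place above the all-gene median held under every scaling except for the cytosolic ribosomal proteins after quantile normalisation, where the median was 0.01 below it. Of 23 widely used reference genes 12 (52.2%) were lower, with a median of -0.23. The largest fall among them was that of ACTG1, a cytoplasmic actin, at 1911 and 1914 at 4 h, against 3147 and 3384 at 0 h.

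**Figure D3:**
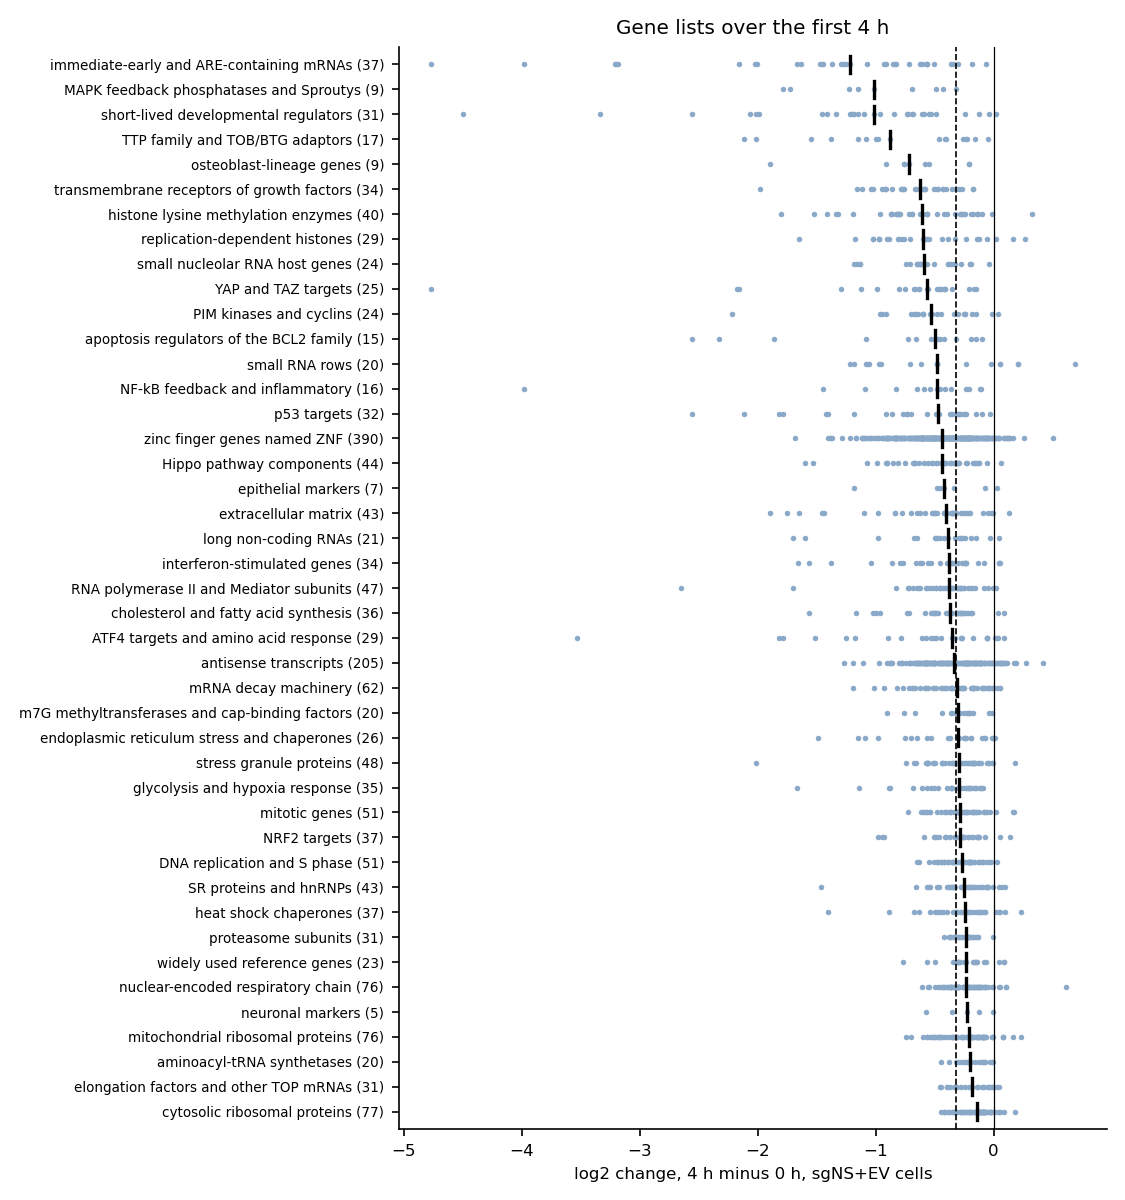
Log2 change between 4 h and 0 h in sgNS+EV cells for each measured member (points) of the 43 gene lists with at least 5 measured members, with the number measured in brackets and the list median as a black bar. Medians run from -1.22 for immediate-early and AU-rich-element mRNAs at the top to -0.14 for cytosolic ribosomal proteins at the bottom; the dashed line is the all-gene median of -0.31 and the solid line is no change.

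The lineage lists hold few measured genes. Of 9 osteoblast-lineage genes 8 were lower, with a median of -0.72. COL1A1, the main chain of type I collagen, had 149.7 and 149 at 4 h, against 535 and 585 at 0 h, and RUNX2, the master transcription factor of osteoblasts, had 11.1 and 10.5, against 19.4 and 18.5. Of 43 extracellular matrix genes 38 were lower, with a median of -0.41, and COL5A1 had 29.1 and 29.2 at 4 h, against 98.9 and 102 at 0 h. Of 5 measured neuronal markers 2 were lower (SYP and TUBB3), and NEFL, at 75.7 and 75.3 against 73.0 and 78.8, had a log2 change of -0.01. Of 7 measured epithelial markers 4 were lower, with a median of -0.42, and neither of the 2 measured blood cell markers nor the 1 measured hepatocyte marker passed.

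Among genes that the study names or that belong to its pathways, QKI did not pass (log2 change -0.05 ± 0.14, limma adjusted p = 0.79). WDR4, which with METTL1 forms a methyltransferase that makes 7-methylguanosine in RNA, had 9.46 and 11.7 at 4 h, against 18.8 and 18.3 at 0 h, a log2 change of -0.76 ± 0.12 (adjusted p = 2.1e-05). METTL1, its catalytic partner, had 17.6 and 18.3 at 4 h, against 23.8 and 21.2 at 0 h, and its change of -0.31 ± 0.13 was at the threshold (adjusted p = 0.049). It no longer passed whichever of the 4 libraries was left out (adjusted p between 0.055 and 0.25), with the GC trend of each library removed (0.056), with a pseudocount of 0.1 (0.052) or under the 3 other scalings (0.75 to 0.82). The groups do not overlap for WDR4 or METTL1, but METTL1 lay above 0 on library totals and after quantile normalisation. Of 20 methyltransferases and cap-binding factors 16 were lower, with a median of -0.30.

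Early loss was larger in GC-rich than in AU-rich transcripts in sgNS+EV cells, while the same gradient had the opposite sign in the other genotypes. Over 11585 protein-coding genes, Spearman's rho between the GC content of the transcript and the log2 change was -0.31; genes are not independent replicates, so no p is given. The median change was -0.40 in the quintile of genes with the highest GC content and -0.18 in the quintile with the lowest, that is 74.4% and 87.7% of the signal left. Of the genes in the highest quintile 71.3% were lower, and of those in the lowest 36.5%. All 4 pairings of a 4 h with a 0 h library had rho below 0, between -0.17 and -0.39. Libraries of one group also differed by GC content, however: replicate 1 minus replicate 2 had a rho of -0.29 at 4 h and -0.31 at 0 h, and the median log2 gap between the lowest and highest GC quintile was 0.10 and 0.11 there, against 0.22 for the change itself. In the other genotypes, each with its own 0 h and 4 h libraries, rho between GC content and the 0 to 4 h change was above 0: 0.42 for sgQKI+EV, 0.16 for QKI7-WT and 0.43 for QKI7-dKH cells. The part of library GC content in the gradient was not tested; with the GC trend of each library removed, 58 genes were higher and 7917 lower among the 12216 with a known GC content, and all 14 strongest falls passed.

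**Figure D4:**
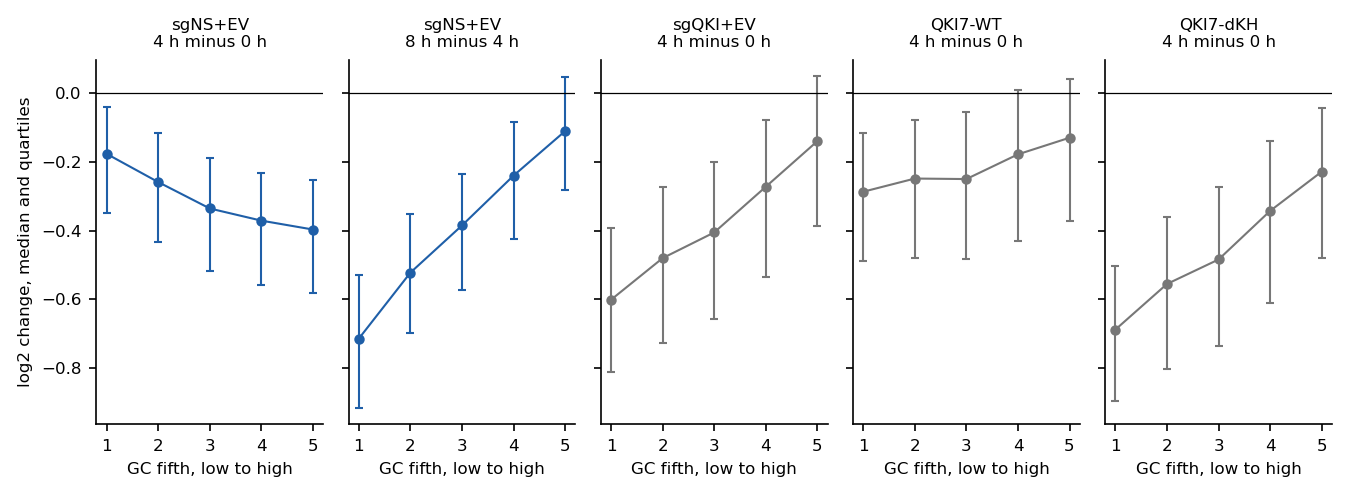
Median log2 change (points) with quartiles (bars) of protein-coding genes in quintiles of transcript GC content, low to high, for sgNS+EV cells over the first 4 h and the next 4 h (blue) and for the other genotypes over the first 4 h (grey). In sgNS+EV cells the change over the first 4 h is -0.18 in the lowest and -0.40 in the highest quintile, and in all 4 other panels the lowest quintile fell more than the highest.

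Other transcript features went with early loss only weakly. Spearman's coefficient was -0.24 for transcript length, -0.22 for coding length and -0.15 for 3′UTR length; the median change was -0.43 in the longest quintile of transcripts and -0.24 in the shortest. It was 0.04 for the number of ATTTA pentamers in the 3′UTR and -0.03 for the mean signal at 0 h. Genes with more than 10 pentamers had a median change of -0.27, and genes with none -0.32. For the number of exons rho was 0.05.

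The next 4 h of the chase looked different, although both intervals use the same 4 h libraries, so an error in these moves the intervals in opposite directions. From 4 h to 8 h 8141 genes (64.9%) were lower and 183 (1.46%) higher (66.3% in either direction), with a median of -0.39. The difference between the intervals was tested directly. For 956 genes (7.62%) the first 4 h brought the larger loss, with a median of -0.73 in the first interval and 0.01 in the second, and for 1639 (13.1%) the second interval did, with -0.07 and -0.81. These counts rest on single libraries: they were 208 and 37 without replicate 1 of the 4 h group, 495 and 827 without its replicate 2, 501 and 710 without replicate 2 of the 0 h group, and 488 and 906 without replicate 2 of the 8 h group. With the GC trend of each library removed they were 490 and 609. All 14 of the strongest early falls were among the 956, a difference that their choice by early fall favours. CYR61 averaged 217 at 0 h, 7.02 at 4 h and 4.83 at 8 h, and DDIT4 averaged 162, 13.1 and 11.4, so both had lost most of their mRNA by 4 h. DDIT4 did not pass from 4 h to 8 h (log2 change -0.18, limma adjusted p = 0.11); the other 13 of the 14 did.

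Some mRNAs fell early and were higher again at 8 h. Of the 7508 lower genes, 129 (1.72%) passed as higher between 4 h and 8 h, a share near the 1.46% of all genes that did. The transcripts of the 121 protein-coding ones had a median GC content of 60.5%, against 49.0% for all protein-coding genes, and the change from 4 h to 8 h went with GC content with a Spearman's rho of 0.63 across genes. The part of GC content in these rises was not tested. PLEC, the cytoskeletal linker plectin, had 203 and 211 at 0 h, 36.7 and 37.3 at 4 h and 53.8 and 60.5 at 8 h, and its change of 0.61 ± 0.10 from 4 h to 8 h passed (limma adjusted p = 2.8e-05). TNRC18 and AHNAK2, named after their values were seen, had 19.5 and 19.3, and 8.68 and 8.72, at 4 h, against 98.8 and 101, and 46.6 and 46.5, at 0 h, and they too were higher at 8 h than at 4 h, by 0.38 and 0.39. HSPA1A, already described, had 291 and 316 at 8 h, a change of 0.94 ± 0.09 from 4 h (adjusted p = 2.6e-08). At the other end, SPTSSA, UBE2D1 and LYPLA1 did not pass over the first 4 h, with log2 changes of 0.57, 0.48 and 0.29, and fell by 1.6, 1.55 and 1.54 from 4 h to 8 h. Their 0 h replicates differed widely, with 16.9 and 11.1 for SPTSSA, 27.9 and 15.4 for UBE2D1 and 65.0 and 41.6 for LYPLA1.

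**Figure D5:**
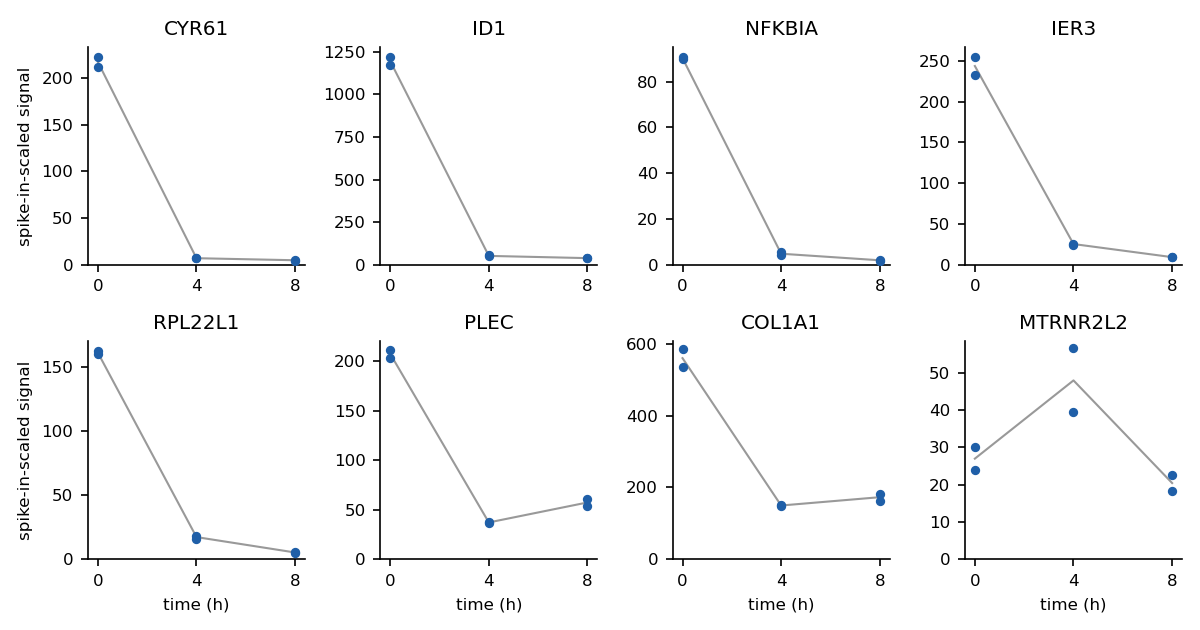
Spike-in-scaled signal of 8 named genes in the sgNS+EV libraries at 0, 4 and 8 h, with 1 point per library and a line through the means. CYR61, ID1, NFKBIA, IER3 and RPL22L1 have lost most of their signal by 4 h, PLEC is higher at 8 h than at 4 h, COL1A1 has 163 and 182 at 8 h after 149.7 and 149 at 4 h, and MTRNR2L2 has its highest values at 4 h.

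The strongest early falls were found in every genotype. All 14 were lower at 4 h in the sgQKI+EV, the QKI7-WT and the QKI7-dKH cells too, with log2 changes between -5.17 and -2.79 over the 3 genotypes, where 63.8%, 42.9% and 73.6% of all genes were lower and 64.7%, 45.5% and 74% passed in either direction. CYR61 changed by -5.17, -5.15 and -5.15, and ID1 by -4.54, -4.42 and -4.57. Of the 7508 genes lower in sgNS+EV cells, 5624 (74.9%) were also lower in sgQKI+EV cells, as were 4536 (60.4%) in QKI7-WT cells and 6101 (81.3%) in QKI7-dKH cells; these are 70.2%, 84.3% and 66.0% of the lower genes of those genotypes. Of the 53 higher genes, 16, 20 and 12 were higher in these genotypes, where 0.885%, 2.66% and 0.406% of all genes were higher, and 9, 0 and 19 were lower. NFKBIA and IER3 changed by -4.27 and -3.87 in sgQKI+EV cells, beside -3.98 and -3.21 in sgNS+EV cells.

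Differences from the other genotypes were tested as interactions, and most counts changed when 1 library was left out. The 0 to 4 h change in sgQKI+EV minus that in sgNS+EV passed for 1341 genes (10.7%), 226 (1.8%) above and 1115 (8.89%) below 0. It passed for no gene by limma, with 2687 to 3889 at an unadjusted p under 0.05, when any 1 of 5 libraries was left out, namely replicate 2 at 0 h or at 4 h of sgNS+EV, replicate 1 at 0 h of sgQKI+EV, or either sgQKI+EV library at 4 h. It passed for 1 gene without replicate 1 at 4 h of sgNS+EV, for 497 without replicate 2 at 0 h of sgQKI+EV and for 13 with the GC trend of each library removed. QKI7-dKH minus sgNS+EV passed for 2689 genes (21.4%), 205 (1.63%) above and 2484 (19.8%) below 0. It passed for no gene by limma without replicate 1 at 4 h of sgNS+EV (3269 at an unadjusted p under 0.05) or replicate 2 at 4 h of QKI7-dKH (3518), for 1 without replicate 2 at 0 h of sgNS+EV, for 973 and 1627 without replicate 1 and replicate 2 at 0 h of QKI7-dKH, for 1543 without replicate 1 at 4 h of QKI7-dKH, and for 984 with the GC trend removed. In QKI7-WT minus sgNS+EV 1 gene passed (0.00797%), COL1A1, while 2645 genes had an unadjusted p under 0.05. Without replicate 1 at 4 h of QKI7-WT 2867 genes passed, and without replicate 2 at 0 h of QKI7-WT 1247. No gene passed by limma (1173 to 2388 at an unadjusted p under 0.05) without any 1 of 5 other libraries, namely replicate 2 at 0 h and both replicates at 4 h of sgNS+EV, replicate 1 at 0 h and replicate 2 at 4 h of QKI7-WT. COL1A1 fell less in QKI7-WT cells, with a log2 change of -0.94 beside -1.90 in sgNS+EV cells, a difference of 0.96 ± 0.14 (SE, limma adjusted p = 0.016). It also fell less in sgQKI+EV cells, by a difference of 0.63 ± 0.14 (adjusted p = 0.035), and in QKI7-dKH cells, by 0.61 ± 0.14 (adjusted p = 0.013). CDKN1B fell more in sgQKI+EV cells (-3.36) and QKI7-dKH cells (-3.41) than in sgNS+EV cells (-2.22), with differences of -1.14 ± 0.20 and -1.19 ± 0.20 (adjusted p = 0.035 and 0.011); its difference in QKI7-WT cells, -0.60 ± 0.20, did not pass (adjusted p = 0.11). QKI changed by -1.03 in sgQKI+EV cells beside -0.05 in sgNS+EV cells, a difference of -0.99 ± 0.20 (adjusted p = 0.035), and by -1.02 in QKI7-dKH cells, a difference of -0.97 ± 0.20 (adjusted p = 0.013). In QKI7-WT cells QKI changed by -0.37, a difference of -0.32 ± 0.20 that did not pass (adjusted p = 0.40). At 0 h the QKI signal was 60.4 with 46.3 (QKI7-WT) or 47.6 with 50.2 (QKI7-dKH), against 36.0 with 32.7 (sgQKI+EV). Cells given a QKI7 vector may add its transcripts to this signal, and their share was not tested. The QKI changes of these cells therefore cannot be read as changes of endogenous mRNA alone. All 3 contrasts share the sgNS+EV libraries, so their values are not independent of each other.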

How the data were processed

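PolyA RNA of U2OS cells was sequenced from stranded libraries, per the labels' protocols. STAR and RSEM were used with GRCh38, per the submitters' processing notes. The deposited values are a linear signal, 1 column per library, taken to be scaled to the ERCC spike-in because the ERCC sums are nearly equal; how the authors scaled them, the unit before that step and the strand setting are not given in the sources used here. The table held 12585 rows, of which 38 were ERCC rows and 12547 endogenous; 38 rows were identical to an earlier row and no value was 0 (lowest 1.01 in the 4 libraries). Groups were taken from sample titles. Values were analysed as log2(value + 1), so printed changes understate those of low genes and differ from ratios of printed means. Requiring a value of 1 or more in 2 or more libraries left every gene in. A model of 12 group means over all 24 libraries was fitted in R 4.3.3 using limma 3.58.1, whose prior variance followed mean expression (12 residual and 9 prior degrees of freedom); tests were two-sided. Depth is unknown, so precision comes from replicate libraries. The fit was tested on simulated data in which few genes changed, unlike in these data, so that test does not cover a general fall. Symbols were matched to GENCODE 29 for 12216 genes; each gene is described by 1 transcript.

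The genes compared, lists and naming rule were chosen with earlier results of these data known. The genes named were QKI, METTL1, WDR4, G3BP1; the 14 lowest and 14 highest changes that passed, with a mean of at least 10 and non-overlapping groups; up to 4 members per list and direction; and 4 per direction in each other contrast. Genes named after their values were seen are said to be so. Alternatives were 3 other scalings, removal of each library's GC trend (median deviation in 20 GC bins), a pseudocount of 0.1, no filter, a mean of at least 10, a replicate term, only the groups compared, a fold limit of 2 and leaving out each library. Library totals without ribosomal RNA and the GC removal were added after the data were seen.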

Additional observations from a re-analysis of the deposited data

Results flagged for a closer look

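Of the named genes, these had a 0 to 4 h change that differed between another genotype and sgNS+EV by a test of the difference itself (limma, adjusted p under 0.05, log2 differences). In each of these contrasts the number of genes that passed changed widely when 1 library was left out, as described above. The differences listed here are therefore not secure. In sgQKI+EV minus sgNS+EV, CDKN1B differed by -1.14, LYPLA1 by -1.25, OTUD6B by -1.18 and MZT1 by -1.12, all below 0. RNA5-8S5 differed by 3.05, SNHG25 by 1.73, NME3 by 1.15 and UPK3BL by 1.10 in the same contrast, all above 0. In QKI7-WT minus sgNS+EV, COL1A1 differed by 0.96. In QKI7-dKH minus sgNS+EV, UBE2D1 differed by -1.56, SPTSSA by -1.44, ZNF644 by -1.40 and ZMYM1 by -1.29. In that contrast RNA5-8S5 differed by 3.14, SNORD3A by 2.17, SNHG25 by 1.89 and RNA5S1 by 1.88.

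With the GC trend of each library removed, the differences of LYPLA1, OTUD6B, MZT1, SNHG25 and UPK3BL in sgQKI+EV no longer passed. RNA5-8S5 is a ribosomal RNA; it had 2079 and 3244 at 4 h, against 3613 and 4149 at 0 h, in sgNS+EV cells.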

How the results depend on the processing

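Scaling and single libraries set most counts. For the 0 to 4 h change in sgNS+EV cells (53 genes higher, 7508 lower), quantile normalisation gave 2928 and 2386, library totals 2214 and 2160, library totals without ribosomal RNA 940 and 3162, a fit on the groups compared alone 130 higher, and a fold limit of 2 gave 0 and 493; leaving out each library gave 21 to 51 and 5811 to 6306. For the early minus late contrast (1639 higher, 956 lower), the same settings gave 2489 and 1874, 4651 and 588, 2974 higher, 2494 and 1725, and 232 and 205; removing the GC trend gave 609 and 490, and leaving out each library 37 to 1429 and 208 to 902. For sgQKI+EV minus sgNS+EV (226 and 1115), quantile normalisation gave 1092 higher, library totals 137 and 4715, without ribosomal RNA 365 and 3576, a mean of at least 10 gave 352 higher, the groups compared alone 1003 and 2139, the fold limit 7 and 15, the GC removal 1 and 12, and leaving out each library 0 to 109 and 0 to 812. For QKI7-WT minus sgNS+EV (1 and 0), quantile normalisation gave 2 lower, library totals 7 and 1466, without ribosomal RNA 80 lower, the groups compared alone and the fold limit 0 higher, the GC removal 8 higher, and leaving out each library 0 to 1858 and 0 to 1009. For QKI7-dKH minus sgNS+EV (205 and 2484), quantile normalisation gave 1015 and 1217, library totals 4703 lower, without ribosomal RNA 446 and 3815, the groups compared alone 773 higher, the fold limit 25 and 69, the GC removal 37 and 947, and leaving out each library 0 to 207 and 0 to 2175. A fold limit calls fewer genes by its construction; otherwise the cause was not tested.

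Of 195 named genes that passed, 134 passed in the same direction under every alternative, and 163 whichever library was left out. Log2 changes that turned above 0, in the order quantile normalisation, library totals and totals without ribosomal RNA, were QKI 0.34, 0.31 and 0.21, G3BP1 0.064, 0.12 and 0.022, MT1E 0.093, 0.19 and 0.090, SF1 0.17, 0.21 and 0.11, KHDRBS3 0.19, 0.17 and 0.070, LAPTM5 0.20, 0.17 and 0.099, SRGN 0.30, 0.23 and 0.15, SERPINA1 0.23, 0.25 and 0.15, SNAP25 0.25, 0.19 and 0.10, NEFL 0.35, 0.35 and 0.25, ZNF644 0.18, 0.17 and 0.071, ZMYM1 0.20, 0.18 and 0.079. Under the first 2 alone they were METTL1 0.047 and 0.040, MT1X 0.012 and 0.031, QARS 0.0042 and 0.048, AARS 0.045 and 0.059, RBFOX3 0.16 and 0.086, and under library totals alone TFRC 0.024, KRT8 0.029 and TUBB3 0.011. NEFL was 0.0067 with the GC trend removed. Leaving out each library gave ranges across 0 for QKI (-0.20 to 0.11), LAPTM5 (-0.17 to 0.015), SRGN (-0.23 to 0.11), NEFL (-0.062 to 0.047), LYPLA1 (-0.024 to 0.61) and ZNF644 (-0.45 to 0.090). The replicate block gave 66 higher and 7615 lower genes over 0 to 4 h; it gave 323 and 1599 for sgQKI+EV, 1 and 0 for QKI7-WT and 236 and 2803 for QKI7-dKH, each minus sgNS+EV. The labels do not say that equal numbers pair libraries. Deviations of replicate 1 correlated at 0.085 between the 0 h and 4 h groups of sgNS+EV, and between -0.424 (QKI7-dKH with QKI7-WT, both at 0 h) and 0.483 (QKI7-WT at 4 h with 0 h) over all pairs of groups, so not every pair deviated together. Depth limits cannot be stated without read counts.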
